A study of Mus musculus with 9 samples.

Results

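Histone lysine methyltransferases attach methyl groups to particular lysines of the histone tails, and histone lysine demethylases take them off. A set of 39 such genes was followed in midbrain of mice with 3 genotypes of Dot1l, the gene of the methyltransferase of H3K79. The members were chosen by gene symbol from this enzyme class with earlier results of these data known. Contrasts with all genes therefore describe this list and are no test of the class. The members are 24 methyltransferases (writers) and 15 demethylases (erasers), 39 of the 47729 gene identifiers counted in each library. They were sorted by the residue that each enzyme is known for, H3K4, H3K9, H3K27, H3K36 or H4K20, and 4 erasers that take 2 residues were entered under both.

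All mice were on a C57BL/6J background (C57/Bl6 in the labels) and carried 1 Pitx3-Cre allele and the Rosa-lox-stop-lox-YFP reporter. They differed in Dot1l, which was intact in Dot1l(+/+), the control, had 1 floxed allele in the heterozygous Dot1l(fl/+) mice and 2 in Dot1l(fl/fl) mice. Tissue was dissected at 180 days, and each genotype had 3 libraries, each made from 3 mice whose tissue was pooled. Per the study's methods, pools were formed from sets of the 3 genotypes taken from the same nests, so the genotypes are tied together by litter. Pitx3 drives Cre in midbrain dopamine neurons, which are a portion of the dissected cells, so the other cells of every library kept their Dot1l alleles. In such tissue, fewer cells of a type and less RNA per cell cannot be told apart.

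Methylation of H3K4 is known from promoters and enhancers, that of H3K36 from transcribed gene bodies, that of H3K9 and H4K20 from heterochromatin, and that of H3K27 from genes silenced by Polycomb. Writers carry a SET domain (DOT1L, the H3K79 enzyme, does not), while erasers are either amine oxidases of the KDM1 family or JmjC oxygenases. Many of these enzymes are dosage-sensitive in the nervous system.

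The libraries held 16422135 to 28403218 counts, and 17671 genes passed the filter on low counts, all 39 members among them, with mean counts per library of 126.3 (Suv39h2) to 6430 (Setd7). Values are CPM (counts scaled to library size with TMM factors). Fold changes are on the log2 scale, with the p of edgeR's quasi-likelihood test in 1 fit of the 9 libraries and Benjamini-Hochberg adjustment over all genes tested. All 10 markers of dopamine neurons were detected. Their summed level was 734 to 825 CPM in the controls, 595 to 736 CPM in Dot1l(fl/+) and 571 to 610 CPM in Dot1l(fl/fl), with 4 and 9 of the 10 lower than in the controls at an unadjusted p under 0.05. Of the 7 oligodendrocyte markers, 3 (Mog, Cnp and Cldn11) were higher in Dot1l(fl/+) at that threshold, while 2 had values below 0, and 4 were lower in Dot1l(fl/fl) than in Dot1l(fl/+). Between the floxed genotypes, 5 of the 10 dopamine markers were also lower. There 1 of 6 markers of neurons in general and 1 of 2 of oligodendrocyte precursors were higher. Of the 6 astrocyte markers 1, Aldh1l1, was higher in Dot1l(fl/+), while 4 had values below 0. Of the 6 microglia markers 2 (Csf1r and Aif1) were higher in Dot1l(fl/fl). Of all genes, 8.39%, 3.93% and 6.48% were under that threshold in Dot1l(fl/+) and Dot1l(fl/fl) against the controls and between the floxed genotypes. The hypothalamic list of 6 genes, of which only Pmch and Trh passed the filter, summed to 123 CPM at most in Dot1l(fl/+) and to no more than 8.45 CPM in the controls; Pmch stood at 99.4 and 49.6 CPM in replicates 1 and 3 of Dot1l(fl/+). No marker gene passed an adjusted p of 0.05 in this fit, and the part of these cells in the results on the members was not tested.

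Replicate 1 of every genotype had Y-linked counts (244 to 254 CPM over Ddx3y, Eif2s3y, Kdm5d and Uty) and little Xist (0.276 to 13.7 CPM), while replicates 2 and 3 had 632 to 817 CPM of Xist and at most 0.748 CPM of the Y-linked genes. The pools were therefore alike in sex across genotypes, with 1 male and 2 female pools each.

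Dot1l itself stood at 85.2, 80.2 and 85.1 CPM in the controls, 84.2, 60.6 and 75.6 CPM in Dot1l(fl/+), and 82.1, 73.9 and 82.9 CPM in Dot1l(fl/fl). The groups overlapped in both floxed genotypes, and each floxed library lay below the control with its replicate number. The log2 fold change was -0.185 ± 0.094 (SE, n = 3 against 3, unadjusted p = 0.069, adjusted p = 0.62, edgeR) in Dot1l(fl/+). For Dot1l(fl/fl) it was -0.069 ± 0.094 (adjusted p = 0.999, edgeR). With the replicate number as a block the first was -0.195 ± 0.0702 (unadjusted p = 0.0163, adjusted p = 0.479, edgeR) and the second -0.071 ± 0.0705 (unadjusted p = 0.335, edgeR). Single libraries moved these values: the first was -0.063 without replicate 2 of Dot1l(fl/+) and -0.295 without replicate 1 (unadjusted p = 0.00549, edgeR), and the second was -0.016 without replicate 2 of Dot1l(fl/fl). Counts per gene do not separate the floxed exon from the rest of the transcript.

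The levels of the members in control midbrain are described first, on the scale of CPM per kb of exon, which allows genes to be compared. Their median was 7.11, against 4.57 over all genes tested, and 32 of the 39 lay above that median. At the top stood Ehmt2 (28.1 ± 1.96, SD, n = 3), which writes H3K9 methylation in euchromatin together with Ehmt1, and Setd7 (24.8 ± 1.53), a monomethyltransferase of H3K4 and of other proteins. The control libraries of Ehmt2 (26.7 to 30.3) lay above those of Setd7 (23.0 to 25.7). Its partner Ehmt1 stood at 5.28 ± 0.146.

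At the bottom were Ezh2 (1.23 ± 0.106), Suv39h2 (1.26 ± 0.125) and Setdb2 (1.43 ± 0.195), whose ranges in the controls overlapped, followed by Kdm2b (1.87 ± 0.144) and Kdm1b (2.57 ± 0.155). Suv39h2 and Setdb2 write H3K9 methylation, Kdm2b removes it from H3K36 and Kdm1b from H3K4. The study also describes KDM2B as a demethylase of H3K79, the residue of Dot1l, but it was sorted under H3K36 here. In 3 pairs of related enzymes, one member was several-fold above the other in every library. The ratio of the levels of Kdm1a (LSD1) and Kdm1b was 4.77 to 5.19 in the controls, 4.76 to 5.36 in Dot1l(fl/+) and 5.06 to 5.41 in Dot1l(fl/fl). For Setdb1 over Setdb2 it was 5.48 to 7.02, 5.4 to 6.3 and 5.58 to 6.27 in the same order. The widest ratio of the pairs was that of Ezh1 over Ezh2, given below. Among the 8 H3K4 writers, Setd7 was followed by Kmt2e (14.9 ± 0.392) and Kmt2a (12.1 ± 0.524), and Setd1b (3.84 ± 0.383) and Setd1a (4.27 ± 0.259), the catalytic subunits of the SET1 COMPASS complexes, were lowest. Setd1a shares 51.8% of its exon bases with another annotated gene on the same strand. If reads shared by 2 genes were dropped in counting, its level is understated. The 5 H3K36 writers ran from Nsd3 (6.55 ± 0.0522) to Ash1l (13.0 ± 0.764).

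**Figure D1:**
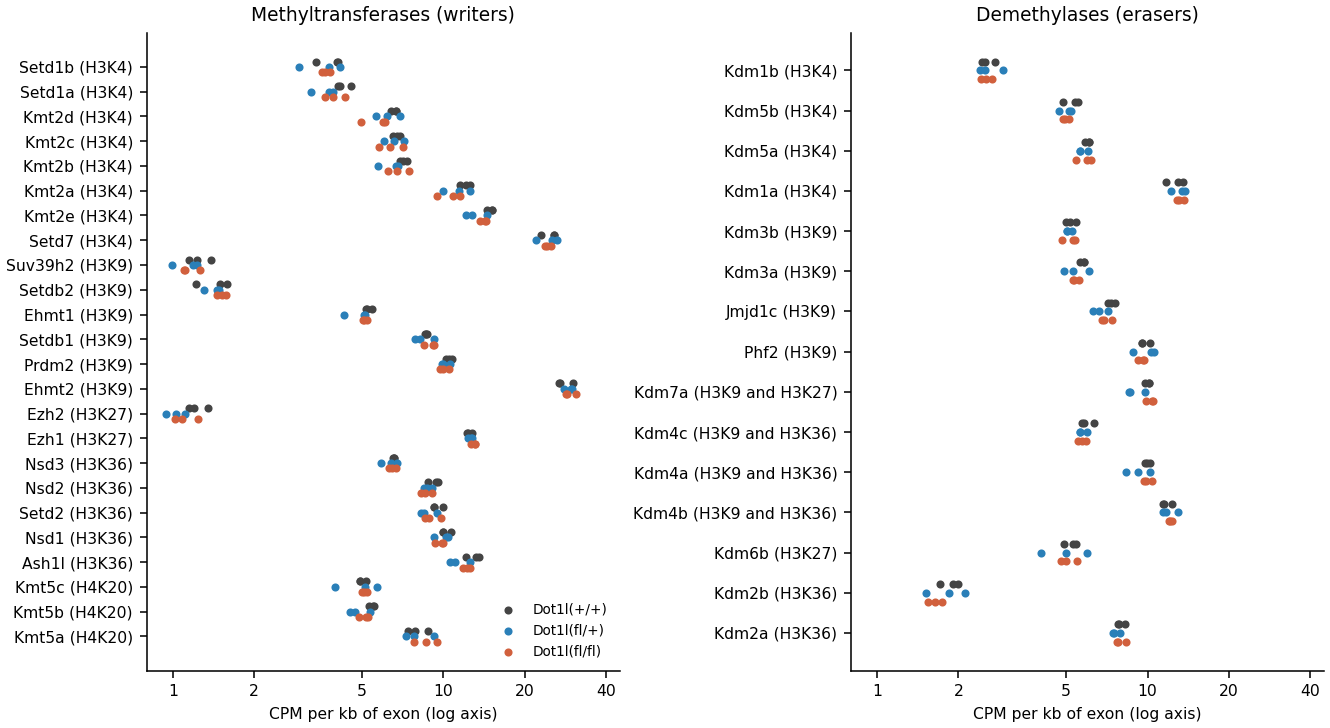
Level of the 39 members in CPM per kb of exon (log axis), with 1 point for each library, by role and target residue; black, Dot1l(+/+), blue, Dot1l(fl/+), red, Dot1l(fl/fl). Ehmt2 and Setd7 sit above 20 in all 9 libraries, Ezh2, Suv39h2 and Setdb2 sit below 2, and within a gene the 3 genotypes lie close to each other.

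Promoter windows are shown for 4 members on which the following results turn: Ezh1 and Ezh2, which write the same residue at unlike levels, and Kdm7a and Kmt2d, the members with the lowest unadjusted p in the comparisons that involve Dot1l(fl/fl). Each window is the 250 bases before the start that RefSeq gives (GRCm38.p6), read 5′ to 3′ on the strand of the gene. The gene spans printed further on are those of GENCODE M21, which begins Ezh2 and Kdm7a further upstream, so the Ezh2 window lies within its span there and the Kdm7a window overlaps the edge of its span. Capitals mark GC boxes, the letters GGGCGG or their complement CCGCCC, which SP-family factors are known to bind.
Ezh2, chr6:47595031-47595280, minus strand: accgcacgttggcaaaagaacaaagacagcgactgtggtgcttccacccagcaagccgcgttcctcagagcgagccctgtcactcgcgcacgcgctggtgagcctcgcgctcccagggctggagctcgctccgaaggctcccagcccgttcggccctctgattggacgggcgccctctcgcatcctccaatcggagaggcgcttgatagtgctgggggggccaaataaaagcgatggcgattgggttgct
Ezh1, chr11:101226464-101226713, minus strand: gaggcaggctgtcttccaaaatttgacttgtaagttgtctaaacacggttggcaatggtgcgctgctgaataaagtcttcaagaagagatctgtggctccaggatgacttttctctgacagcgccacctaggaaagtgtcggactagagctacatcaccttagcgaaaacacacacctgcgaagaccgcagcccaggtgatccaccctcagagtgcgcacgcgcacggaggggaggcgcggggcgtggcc
Kdm7a, chr6:39206774-39207023, minus strand: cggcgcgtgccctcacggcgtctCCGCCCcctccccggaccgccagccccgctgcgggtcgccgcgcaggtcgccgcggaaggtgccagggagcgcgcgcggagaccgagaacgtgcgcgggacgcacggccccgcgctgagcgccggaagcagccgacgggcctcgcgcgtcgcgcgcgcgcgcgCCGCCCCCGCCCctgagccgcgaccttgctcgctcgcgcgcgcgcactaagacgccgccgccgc
Kmt2d, chr15:98871206-98871455, minus strand: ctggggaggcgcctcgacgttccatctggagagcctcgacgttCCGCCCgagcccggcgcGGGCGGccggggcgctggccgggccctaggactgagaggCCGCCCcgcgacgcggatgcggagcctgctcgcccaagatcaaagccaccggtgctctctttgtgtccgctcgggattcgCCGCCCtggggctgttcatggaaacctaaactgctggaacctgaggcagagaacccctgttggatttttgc

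The Kdm7a window held 3 GC boxes, starting 227, 64 and 58 bases before the start, and the Kmt2d window 4, at 207, 190, 151 and 71 bases. The windows of Ezh1 and Ezh2 held none. RefSeq windows were found for 26 of the 39 members (37 windows), and 24 of the 37 (64.9%) held a GC box on either strand, as did 32.7% of the 32851 windows of all genes. GC content was 67.6% in the median member window and 52.4% over all windows, and the median number of CpG was 23 against 6. Kdm7a had 56 CpG in 250 bases, which no other member window reached, and Ezh1 had 14. Of 4 longer motifs, the ETS site CCGGAAGT and the NRF1 core GCGCATGC were in no member window (2.88% and 2.26% of all windows), while the E2F site GCGGGAAA was in that of Kmt5c (0.895% of all windows) and the CRE site TGACGTCA in that of Suv39h2 (1.55%).

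In Dot1l(fl/+) against Dot1l(+/+), 7 of the 39 members were lower at an unadjusted p under 0.05 and none was higher. They were 5 writers, Kmt2e and Setd1a (H3K4), Ash1l (H3K36), Ezh2 (H3K27) and Kmt5b (H4K20), and 2 erasers, Kdm7a (H3K9 and H3K27) and Jmjd1c (H3K9). The differences were small, between -0.14 and -0.26 on the log2 scale. No member passed an adjusted p of 0.05, and their adjusted p lay between 0.541 and 0.586 (edgeR). Over all genes, 0% passed the adjusted threshold in this fit, and 45 genes, none a member, with DESeq2 on the 2 genotypes alone. At the unadjusted threshold 4.09% of all genes were lower and 4.3% were higher, against 17.9% and 0% of the members.

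Kmt2e, on chromosome 5 (GRCm38, 23434441 to 23504235, plus strand), codes for MLL5, a member of the MLL family whose SET domain is thought to have little activity of its own. It stood at 158.4, 158.5 and 151.4 CPM in the controls, 151.1, 126.0 and 134.2 CPM in Dot1l(fl/+), and 149.9, 143.5 and 150.7 CPM in Dot1l(fl/fl). Both floxed genotypes lay below the controls, by a narrow margin in replicate 1 of Dot1l(fl/+) and in replicate 3 of Dot1l(fl/fl). The log2 fold change was -0.19 ± 0.062 (SE, n = 3 against 3, unadjusted p = 0.00928, adjusted p = 0.541, edgeR) in Dot1l(fl/+), the lowest unadjusted p of the 39 members in that comparison, and -0.077 ± 0.062 in Dot1l(fl/fl). Its exons share 972 bases (9.3%) with Srpk2 on the opposite strand, for which the values were -0.091 ± 0.051 and -0.037 ± 0.051, and the strand setting of the counting is not given in the sources used here.

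Setd1a (chromosome 7, 127776670 to 127800122, plus strand), the catalytic subunit of a SET1 COMPASS complex that trimethylates H3K4, stood at 31.0, 27.7 and 28.3 CPM in the controls and 26.6, 22.05 and 25.7 CPM in Dot1l(fl/+), with no overlap. Its Dot1l(fl/fl) libraries stood at 26.5, 24.9 and 29.5 CPM, which overlapped with the controls. The fold changes were -0.23 ± 0.09 (unadjusted p = 0.0242) and -0.11 ± 0.09. Without replicate 2 of Dot1l(fl/+) the first was -0.15 (unadjusted p = 0.105, edgeR). An annotated gene on the same strand, Gm49388, covers 51.8% of its exons and had 0 counts in all libraries. Whether reads shared by the 2 genes were dropped was not tested.

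Ash1l (chromosome 3, 88950622 to 89079375, plus strand) dimethylates H3K36 and is known to oppose Polycomb. Its values were 196, 180 and 202 CPM in the controls, 187, 157 and 165 CPM in Dot1l(fl/+) and 181, 175 and 187 CPM in Dot1l(fl/fl). Here replicate 1 of Dot1l(fl/+) lay within the controls. The fold changes were -0.19 ± 0.066 (unadjusted p = 0.014) and -0.093 ± 0.066.

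Kmt5b (chromosome 19, 3767421 to 3818303, plus strand) writes the di- and trimethyl forms of H4K20, as Kmt5c does, on the monomethyl form made by Kmt5a. It stood at 78.3, 81.3 and 81.6 CPM in the controls, 79.3, 69.4 and 66.7 CPM in Dot1l(fl/+) and 72.1, 76.4 and 77.4 CPM in Dot1l(fl/fl). Replicate 1 of Dot1l(fl/+) overlapped with the controls, while all 3 libraries of Dot1l(fl/fl) lay below them. The fold changes were -0.16 ± 0.064 (unadjusted p = 0.0244) and -0.095 ± 0.065. Kmt5a was at 46.5, 39.3 and 41.7 CPM in the controls, 49.0, 38.6 and 41.6 CPM in Dot1l(fl/+) and 50.1, 45.8 and 41.3 CPM in Dot1l(fl/fl), with overlap throughout (0.018 ± 0.097 and 0.11 ± 0.097). Kmt5c was at 20.7, 19.7 and 19.8 CPM, then 20.5, 15.9 and 22.7 CPM, then 20.9, 20.01 and 20.3 CPM in the same order, again with overlap (-0.024 ± 0.11 and 0.027 ± 0.11). Per kb, Kmt5b and Kmt5c were at a similar level, with ratios of 1.03 to 1.12 in the controls, 0.796 to 1.18 in Dot1l(fl/+) and 0.937 to 1.04 in Dot1l(fl/fl).

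Ezh2 (chromosome 6, 47530139 to 47595341, minus strand) and Ezh1 (chromosome 11, 101191115 to 101226463, minus strand) are the alternative catalytic subunits of PRC2, which methylates H3K27. EZH2 is known from dividing cells and EZH1 from postmitotic ones. Ezh2 was at 7.66, 9.02 and 8.00 CPM in the controls, 7.40, 6.32 and 6.91 CPM in Dot1l(fl/+), all below the controls, and 6.80, 7.20 and 8.25 CPM in Dot1l(fl/fl). Ezh1 was at 92.4, 90.7 and 94.9 CPM, then 94.2, 95.4 and 92.4 CPM, then 94.3, 97.8 and 97.3 CPM, and these groups overlapped. The fold changes of Ezh2 were -0.26 ± 0.12 (unadjusted p = 0.0451) and -0.16 ± 0.12, and those of Ezh1 were 0.021 ± 0.046 and 0.058 ± 0.046. Per kb of exon, Ezh1 was 9.03 to 10.8 times Ezh2 in the controls, 11.4 to 13.5 times in Dot1l(fl/+) and 10.6 to 12.4 times in Dot1l(fl/fl). The ratios of Dot1l(fl/+) lay above all 3 controls, and those of Dot1l(fl/fl) overlapped with them. The call of Ezh2 was the least stable of the 7, and stayed under 0.05 in 5 of 21 alternative fits. With the replicate number as a block it was -0.26 ± 0.125 (unadjusted p = 0.0605, edgeR).

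Among the erasers, Kdm7a (chromosome 6, 39136623 to 39206789, minus strand), a JmjC enzyme with a PHD finger that takes methyl groups off H3K9 and H3K27, had the lowest unadjusted p. It stood at 101.3, 98.4 and 101.3 CPM in the controls, 98.2, 86.8 and 86.2 CPM in Dot1l(fl/+) and 98.9, 104.6 and 105.4 CPM in Dot1l(fl/fl). All 3 Dot1l(fl/+) libraries were below both other genotypes, replicate 1 by a narrow margin, and Dot1l(fl/fl) overlapped with the controls. The fold change was -0.15 ± 0.057 in Dot1l(fl/+) (unadjusted p = 0.0202) and 0.037 ± 0.057 in Dot1l(fl/fl). With an offset for length and GC content the first was -0.041, and this call stayed under 0.05 in 14 of 21 alternative fits. Jmjd1c (chromosome 10, 67096125 to 67256326, plus strand), a JmjC protein assigned to H3K9, was at 131, 127 and 135 CPM in the controls, 128, 118 and 112 CPM in Dot1l(fl/+) and 123, 121 and 132 CPM in Dot1l(fl/fl), with overlap in both floxed genotypes. Its fold changes were -0.14 ± 0.058 (unadjusted p = 0.0344) and -0.065 ± 0.058. With the same offset the first was -0.064, and the call of Jmjd1c stayed under 0.05 in 12 of 21 alternative fits.

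**Figure D2:**
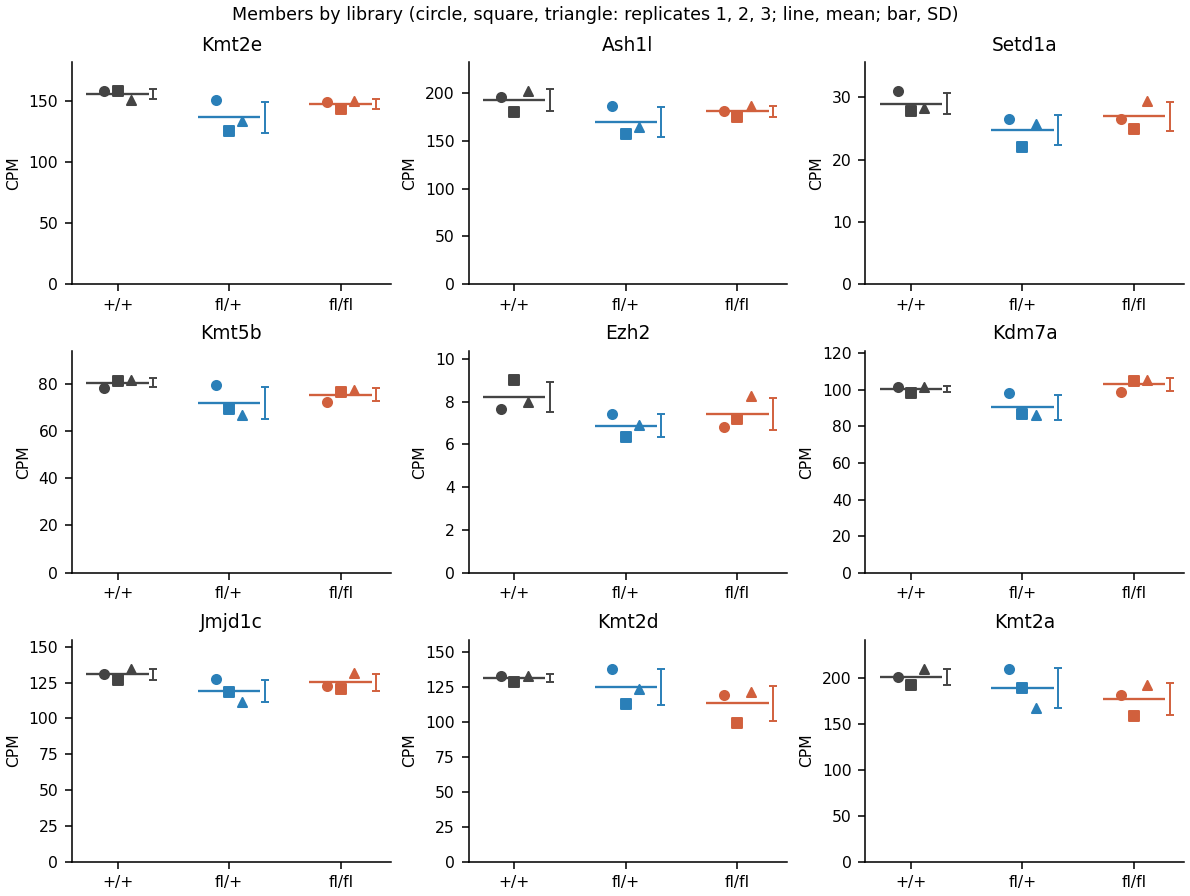
CPM of the 9 members with an unadjusted p under 0.05 against the controls, in each library (circle, square and triangle, replicates 1, 2 and 3; line, mean; bar, SD), with axes from 0. The circles of Dot1l(fl/+) lie near or within the controls for most genes, whereas its squares and triangles lie lower; Kmt2d and Kmt2a are lowest in Dot1l(fl/fl).

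The 3 libraries of Dot1l(fl/+) lay all below the 3 controls for 6 of 39 members and all above them for none. Over all genes, 6.47% lay below and 6.84% above. The 6 were Kmt2e, Setd1a, Ezh2 and Kdm7a, given above, and 2 writers whose test did not pass, Kmt2b and Ehmt1. Kmt2b, an H3K4 methyltransferase of the MLL family, was at 68.0, 70.3 and 66.3 CPM in the controls, 65.1, 55.3 and 64.2 CPM in Dot1l(fl/+) and 64.8, 59.7 and 71.4 CPM in Dot1l(fl/fl), which is -0.15 ± 0.076 in Dot1l(fl/+) (unadjusted p = 0.0692). Ehmt1 was at 42.04, 44.2 and 42.3 CPM, then 41.6, 35.0 and 41.2 CPM, then 42.4, 41.3 and 41.0 CPM in the same order, which is -0.13 ± 0.071 in Dot1l(fl/+) (unadjusted p = 0.0971).

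In Dot1l(fl/fl) against Dot1l(+/+), 2 members were lower at an unadjusted p under 0.05 and none was higher. Both, Kmt2d and Kmt2a, are H3K4 methyltransferases of the MLL family. Over all genes, 1.72% were lower and 2.21% were higher, against 5.13% and 0% of the members, and 0% passed an adjusted p of 0.05 in this fit. All members had an adjusted p of 0.999 in that comparison (edgeR).

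Kmt2d (chromosome 15, 98831669 to 98871204, minus strand), which monomethylates H3K4 at enhancers, was at 133, 128 and 133 CPM in the controls, 138, 112 and 124 CPM in Dot1l(fl/+) and 119, 98.7 and 121 CPM in Dot1l(fl/fl). Every Dot1l(fl/fl) library lay below the controls, with replicate 2 lowest, and Dot1l(fl/+) overlapped with them. The fold change was -0.22 ± 0.082 in Dot1l(fl/fl) (unadjusted p = 0.0196) and -0.076 ± 0.082 in Dot1l(fl/+). Kmt2a (chromosome 9, 44803355 to 44881296, minus strand), known for keeping Hox genes active, was at 202, 192 and 210 CPM in the controls, 210, 190 and 167 CPM in Dot1l(fl/+) and 182, 159 and 193 CPM in Dot1l(fl/fl). Its highest Dot1l(fl/fl) library overlapped with the lowest control. The fold changes were -0.18 ± 0.083 in Dot1l(fl/fl) (unadjusted p = 0.0471) and -0.091 ± 0.083 in Dot1l(fl/+). Without replicate 1 of the controls or without replicate 2 of Dot1l(fl/fl), 0 members were left under 0.05, against 2.94% and 2.13% of all genes. Without that Dot1l(fl/fl) library the fold change was -0.125 for Kmt2d and -0.104 for Kmt2a.

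The 3 libraries of Dot1l(fl/fl) lay all below the controls for 5 members, against 5.25% of all genes, and all above them for none, against 5.03%. They were Kmt2d, Kmt2e and Kmt5b, given above, Nsd1 and Kdm3a. Nsd1, a dimethyltransferase of H3K36, was at 175.6, 175.1 and 186.5 CPM in the controls, 181.7, 178.5 and 161.1 CPM in Dot1l(fl/+) and 174.7, 162.6 and 173.6 CPM in Dot1l(fl/fl) (-0.073 ± 0.056, unadjusted p = 0.217), a narrow gap. Kdm3a, an eraser of H3K9, was at 46.3, 47.9 and 47.8 CPM, then 43.8, 49.9 and 40.2 CPM, then 45.8, 44.0 and 43.8 CPM in the same order (-0.088 ± 0.074 in Dot1l(fl/fl), unadjusted p = 0.257).

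Between the floxed genotypes, Dot1l(fl/fl) against Dot1l(fl/+), only Kdm7a had an unadjusted p under 0.05, and it was higher (0.19 ± 0.057, unadjusted p = 0.00576, adjusted p = 0.641, edgeR), with all 3 libraries above those of Dot1l(fl/+). With the length and GC offset it was 0.109 ± 0.0455 (unadjusted p = 0.0325), and with that offset and the replicate block 0.109 ± 0.0513 (unadjusted p = 0.0544). Over all genes in the main fit, 3.6% were higher and 2.87% were lower at that threshold and 0% passed the adjusted one. Of all genes, 5.98% lay all above and 5.14% all below. Without replicate 1, 2 or 3 of Dot1l(fl/+), 5, 4 and 3 members were under 0.05, against 9.37%, 9.79% and 4.9% of all genes, and with the replicate number as a block 2 were (7.12%), Kdm7a and, as a lower one, Kmt2d. This comparison shares the Dot1l(fl/+) libraries with the first. In edgeR's test of any difference among the 3 genotypes, Kdm7a (unadjusted p = 0.0139), Kmt2e (unadjusted p = 0.0294) and Ash1l (unadjusted p = 0.0436) were under 0.05, which is 3 of 39 members against 6.44% of all genes, and the lowest adjusted p of a member was 0.761 (edgeR), with 0% of all genes past the adjusted threshold.

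By role and residue, the members were described by their counts and medians, with no test. The median log2 fold change of all 39 was -0.064 for Dot1l(fl/+) and -0.057 for Dot1l(fl/fl), against -0.003 and 0.001 over all genes tested, and 32 and 30 members lay below 0 (82.1% and 76.9%, against 51.1% and 49.6% of all genes). Of 24 relatives outside the set, 9 and 8 lay below 0. Writers had medians of -0.075 and -0.065, with 21 and 18 of 24 below 0. Erasers had medians of -0.059 and -0.032, with 11 and 12 of 15 below 0. Both comparisons use the same 3 control libraries, so the 2 sets of values are not independent. With 1 library left out, the median of the 39 ranged from -0.093 (without Dot1l(fl/+) replicate 1) to -0.04 (without its replicate 2, when 26 lay below 0) for Dot1l(fl/+), and from -0.062 to -0.033 (without control replicate 1) for Dot1l(fl/fl), where it was -0.037 without Dot1l(fl/fl) replicate 2.

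All 8 H3K4 writers lay below 0 in both comparisons, with medians of -0.087 and -0.072 and ranges of -0.23 (Setd1a) to -0.019 (Setd7) in Dot1l(fl/+) and of -0.22 (Kmt2d) to -0.024 (Setd7) in Dot1l(fl/fl). The remaining H3K4 writers, Kmt2c, which resembles Kmt2d, and Setd1b, which resembles Setd1a, had -0.023 and -0.083 in Dot1l(fl/+). When the fit carried an offset for length and GC, 6 of the 8 lay below 0 in Dot1l(fl/+), Kmt2c and Setd7 being the exceptions, and all 8 in Dot1l(fl/fl), with medians of -0.073 and -0.044. Without that offset, leaving out single libraries moved the medians by over 1.5 times: in Dot1l(fl/+) to -0.183 without its replicate 1 and to -0.05 without its replicate 2 (6 of 8 below 0), and in Dot1l(fl/fl) to -0.047 (7 of 8 below 0) and -0.136 without its replicates 2 and 3 and to -0.11 without control replicate 2. The 4 H3K4 erasers were closer to 0, with medians of -0.019 and -0.027. Of these, Kdm1a, the catalytic subunit of the CoREST complex, had 0.045 ± 0.067 and 0.052 ± 0.067, and Kdm5b, a JmjC enzyme for H3K4, had -0.07 ± 0.06 and -0.08 ± 0.06.

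The 5 H3K36 writers were likewise all below 0 in both comparisons, with medians of -0.073 and -0.073. With the same offset, 3 of 5 were below 0 in Dot1l(fl/+), where the median was -0.006, and 4 of 5 in Dot1l(fl/fl), where it was -0.045. Without the offset and without control replicate 3, the medians were -0.047 and -0.043. The median of Dot1l(fl/fl) was -0.038 without its replicate 2 and -0.113 without its replicate 3, and 4 of 5 lay below 0 in Dot1l(fl/+) without its replicate 2 or 3 and in Dot1l(fl/fl) without its replicate 1. Setd2, which makes the trimethyl form behind elongating polymerase, had -0.12 ± 0.065 in Dot1l(fl/+) (unadjusted p = 0.0896) and -0.063 ± 0.065 in Dot1l(fl/fl). Nsd2 had -0.073 ± 0.053 and -0.094 ± 0.053, and Nsd3 had -0.047 ± 0.054 and -0.014 ± 0.055. The 5 H3K36 erasers had medians of -0.052 and -0.007, with 1 of 5, Kdm4b, above 0 in both. Kdm2a, a CpG-binding JmjC enzyme, had -0.068 ± 0.05 and -0.007 ± 0.05, and Kdm2b had the lowest value of the erasers in Dot1l(fl/fl), -0.18 ± 0.11, which did not pass (unadjusted p = 0.133).

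The 6 H3K9 writers had medians of -0.036 and 0.004 and the 8 H3K9 erasers -0.069 and -0.024. Ehmt2, the member with the highest level, had the highest value of all 39 in Dot1l(fl/+), 0.058 ± 0.059. Setdb1, which acts with TRIM28 on retroelements, had -0.035 ± 0.065 and 0.053 ± 0.066, and Prdm2 had -0.036 ± 0.053 and -0.057 ± 0.053. Suv39h2, a heterochromatin enzyme, had -0.14 ± 0.13 and -0.11 ± 0.14, with the highest SE of the 39 members. The related erasers Kdm4a, Kdm4b and Kdm4c, which act on H3K9 and H3K36, had -0.11 ± 0.07, 0.042 ± 0.062 and -0.052 ± 0.066 in Dot1l(fl/+). Kdm3b, a relative of Kdm3a, had -0.03 ± 0.058, and Phf2 had 0.018 ± 0.07. For H3K27, Kdm6b, an eraser known from activated genes, had -0.064 ± 0.11 and -0.032 ± 0.11.

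The 95% intervals, each taken alone, bound changes in the whole dissected tissue, and not changes within the dopamine neurons, which are a portion of its cells. Those of the 39 members in Dot1l(fl/fl) ran from -0.43 at the lowest (Kdm2b) to 0.36 at the highest (Setdb2), and 37 of the 39 held 0. In Dot1l(fl/+), they ran from -0.51 (Ezh2) to 0.26 (Setdb2), and 32 of the 39 held 0.

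**Figure D3:**
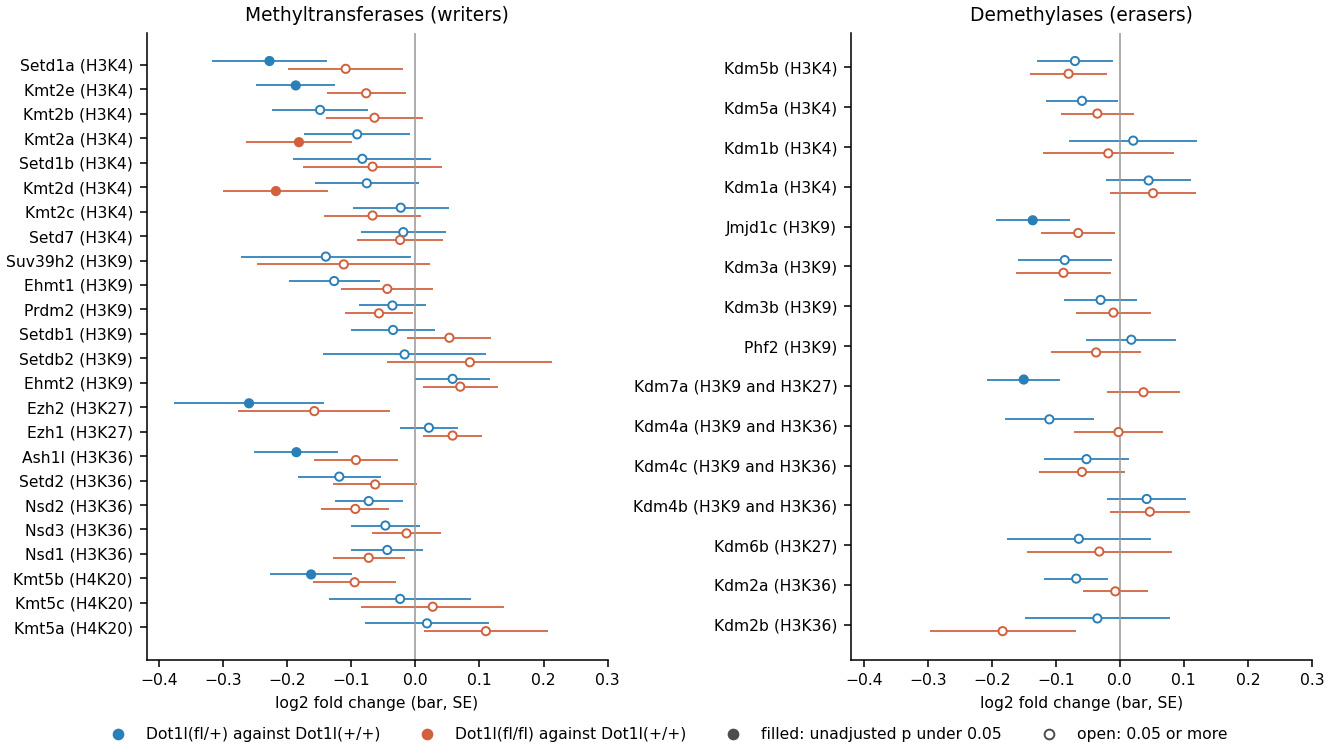
log2 fold change of the 39 members (bar, SE) in Dot1l(fl/+) (blue) and Dot1l(fl/fl) (red) against Dot1l(+/+), by role and residue; filled points have an unadjusted p under 0.05, in 7 and 2 members. Most points of either colour lie left of 0, among them all 8 H3K4 writers and all 5 H3K36 writers; with a length and GC offset this became 6 and 3 in Dot1l(fl/+).

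The values of single libraries were not alike within Dot1l(fl/+). Relative to the control mean, the median of the 39 members was 0.004 in replicate 1, -0.136 in replicate 2 and -0.087 in replicate 3. It was -0.043, -0.061 and -0.022 in Dot1l(fl/fl) and 0.021, -0.031 and 0.012 in the controls. Replicate 2 of Dot1l(fl/+) was the lowest of all 9 libraries for 16 members and replicate 3 for 10, while replicate 1 was the lowest for none and the highest for 8. Without replicate 1, 10 members were under an unadjusted p of 0.05, without replicate 2 only 2 were, and without replicate 3 there were 4, while 12.5%, 10.2% and 5.65% of all genes were under it in these fits. Leaving out control replicate 3 gave 2 (5.45% of all genes), and leaving out control replicate 1 gave 4 (7.19%). The 2 members under it in 2 of these fits are a share at or below that of all genes. Without replicate 2 of Dot1l(fl/+) they were Kmt2e and Kdm3a, and the 4 without its replicate 3 included Kdm4a. Neither Kdm3a nor Kdm4a was under it in the main fit.

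Since replicate 1 was the male pool of each genotype, the comparison was also made by sex, which was added after the data were seen. In the female pools the median of the members was -0.091 in Dot1l(fl/+) against the controls, with 33 of 39 below 0. In the male pools, with 1 library a genotype, it was -0.013, with 22 below 0. For Dot1l(fl/fl) the order was the reverse, -0.039 and -0.068. Sex cannot be told apart here from the set of pools numbered 1. Replicate 1 of Dot1l(fl/+) also had the most Pmch, and its part in these values was not tested.

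A property that the members share is length. Their exons had a median length of 9596 bases, against 3972 bases for all genes tested, and all 39 were above that median. When genes were divided by exon length into 5 classes of equal size, 24 members fell in the longest class, 12 in the fourth and 3 in the third. In Dot1l(fl/+), the median log2 fold change of all genes ran from 0.079 in the shortest class to -0.044 in the longest, where 30.3% lay above 0. In the longest class, 8.6% of all genes were lower at an unadjusted p under 0.05, against 5 of the 24 members (20.8%). The fourth class had 5.34% of all genes and 2 of 12 members (16.7%). The median of the members in the longest class was -0.075, against -0.044 for all its genes, and in the fourth -0.008, against -0.023.

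The same held by library. The median of the longest class was 0, -0.068 and -0.06 in replicates 1, 2 and 3 of Dot1l(fl/+), and that of the shortest class 0.015, 0.129 and 0.11, so the libraries in which the members were low were those in which long genes were low. The longest class stood in Dot1l(fl/fl) at -0.016, -0.04 and -0.004. With an offset for length and GC content, the median of the members was -0.03 for Dot1l(fl/+) and -0.023 for Dot1l(fl/fl), and 25 and 26 of the 39 lay below 0. In that fit 5 members were under an unadjusted p of 0.05 in Dot1l(fl/+): Setd1a, Kmt2e, Ash1l and Kmt5b, as before, and Kmt2b, against 7.03% of all genes. Kdm7a (-0.041 ± 0.045), Jmjd1c (-0.064 ± 0.042) and Ezh2 (-0.21 ± 0.11) were not among them. For Dot1l(fl/fl), Kmt2d stayed under 0.05 and Kmt2a did not. Ehmt2, an H3K9 writer, was at 0.105 ± 0.0487 there (unadjusted p = 0.0508), and was higher at an unadjusted p of 0.0421 when the replicate block was added to that fit.

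**Figure D4:**
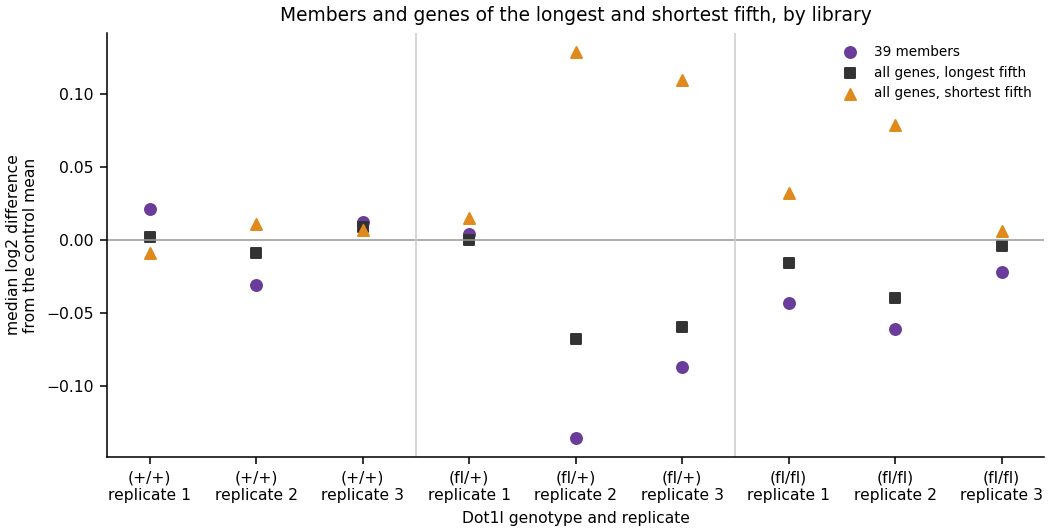
Median log2 difference from the control mean in each library for the 39 members (purple circles), all genes of the longest of 5 classes by exon length (black squares) and of the shortest class (orange triangles). Members and long genes are lowest, and short genes highest, in replicates 2 and 3 of Dot1l(fl/+), where the members stand at -0.136 and -0.087; replicate 1 sits with the controls.

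The median SD of log2 CPM within genotypes was 0.09, against 0.126 over all genes, with 9 of 39 members above that median. The members also had more counts, with a median of 1754 per library against 428 over all genes.

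Partners of these enzymes were taken from lists of complexes, and genes under an unadjusted p of 0.05 in edgeR's test are named; their adjusted p were 0.541 or more. The shares of all genes at that threshold, given above, came to 4.3% (higher) and 4.09% (lower) for Dot1l(fl/+), against 2.21% and 1.72% for the homozygous pools, so 0 or 1 call per direction in a list of this size is near the background. Among the COMPASS partners tested, the shared subunits of the H3K4 methyltransferases, 0 of 11 were under 0.05 in Dot1l(fl/+), with a median of 0.001. In Dot1l(fl/fl) the median was 0.03, with 9 of 11 above 0, and 1 was lower at that threshold. This was Hcfc1, a host cell factor that binds SET1 and MLL complexes, with 149, 140 and 143 CPM in the controls and 132, 126 and 134 CPM in Dot1l(fl/fl), with no overlap (-0.14 ± 0.048).

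Of the 10 PRC2 partners, 1 was higher and 1 lower in Dot1l(fl/+), and none was under 0.05 in Dot1l(fl/fl). The histone-binding Rbbp4 was the higher one, with 119, 124 and 121 CPM in the controls and 132, 135 and 133 CPM in Dot1l(fl/+) (0.14 ± 0.048), and the DNA-binding Aebp2 the lower one (-0.13 ± 0.055). Of the 7 CoREST partners, 1 was lower in each floxed genotype. It was Rcor1, the scaffold that holds KDM1A, at 36.1, 34.2 and 38.1 CPM in the controls, 32.7, 32.9 and 31.6 CPM in Dot1l(fl/+) and 34.1, 31.1 and 32.7 CPM in Dot1l(fl/fl). All 6 floxed libraries lay below the controls, with -0.16 ± 0.066 and -0.15 ± 0.067 on the log2 scale. Of the 7 H3K9 partners and readers, 1 was lower in Dot1l(fl/+) and none in Dot1l(fl/fl). This was Atf7ip, a cofactor of SETDB1 (-0.125 ± 0.049), which was higher in Dot1l(fl/fl) than in Dot1l(fl/+) (0.11 ± 0.049).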

How the data were processed

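RNA of dissected midbrain was sequenced by the authors from directional libraries, and raw counts per Ensembl gene were deposited for 9 libraries, which the submitters' notes place on GRCm38.p4 after Trimmomatic 0.30. The aligner and the strand setting of the counting are not given in the sources used here. The series description speaks of sorted embryonic neurons, but each label gives dissected tissue at 180 days. The authors' DESeq2 tables (fold changes and p-values) were not used.

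Counts were fitted with edgeR 4.0.16 (R 4.3.3): filterByExpr, TMM, quasi-likelihood test, genotype as the only factor, Benjamini-Hochberg over 17671 genes. Thresholds were an adjusted and an unadjusted p of 0.05. The steps were tested on simulated data. Exon lengths came from GENCODE M21 and promoters from RefSeq. Alternatives were DESeq2 1.42.0, its size factors, other filters, 2 genotypes alone, the replicate number as a block, length and GC offsets, and each library left out; the fits by sex were chosen after seeing the data. Per-library values are given for members with an unadjusted p under 0.05 or 3 libraries of a genotype all above or below the controls, for Ezh1 and Ezh2, and for the Kmt5 genes; of partner lists, genes under 0.05 are named. Members and lists were chosen with earlier results of these data known. The study's methods say that pools took matched sets of the 3 genotypes from each nest, but not that a replicate number marks such a set, so the fit with the number as a block is given beside results that it changes. A check for duplicate deposits found none (chi-square per degree of freedom between replicates 4.47 to 16.5).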

Additional observations from a re-analysis of the deposited data

How the results depend on the processing

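No member passed an adjusted p of 0.05 in any of the 21 alternatives of each comparison, and no fold change named in the report for a member under 0.05 changed sign. The number of members under an unadjusted p of 0.05 in Dot1l(fl/+) against the controls was 7, and 4 with the replicate block and a length and GC offset, 3 with sex as a factor and that offset, and 2 to 10 when 1 library was left out; of all genes, 7.65%, 6.95% and 5.45% to 12.5% were under it, so 3 and 2 members are near or below that share. In Dot1l(fl/fl) it was 2, and 1 with the length and GC offset (2 with the block or sex added to it, of which Ehmt2 was higher), 1 in the female pools alone, and 0 to 3 with 1 library left out. Of all genes, 3.98% were under 0.05 with the offset, and 4.25% and 4% with the block or sex added. The share was 2.27% in the female pools and 2.13% to 5.26% with 1 library left out. In Dot1l(fl/fl) against Dot1l(fl/+) the number of members was 1, and 2 without a filter on low counts, 2 with the replicate block and 0 with the block and the offset. It was 3 in the female pools alone and 1 to 5 with 1 library left out. Of all genes, 6.34%, 7.12%, 6.36%, 6.24% and 4.9% to 9.79% were under 0.05 in these fits, in the same order. The median of the members in this comparison was 0.028, and 0.009 to 0.078 with 1 library left out. The cause was not tested. Leaving out replicate 1, 2 or 3 of Dot1l(fl/+) gave the 5, 4 and 3 of the last comparison. Kmt2e stayed under 0.05 in 21 of 21 alternatives, Kdm7a (Dot1l(fl/fl) against Dot1l(fl/+)) in 20, Ash1l and Kmt2d in 19, Setd1a in 18, Kmt5b in 15, Kdm7a in Dot1l(fl/+) in 14, Kmt2a in 13, Jmjd1c in 12 and Ezh2 in 5. DESeq2 on all libraries gave 6, 2 and 1 members in the 3 comparisons, against 4.42%, 1.74% and 3.31% of all genes.

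The methods pair the pools by nest without naming the replicate numbers. Deviations of 9 same-number pairs correlated at 0.022 to 0.317, 6 of them over 0.1 (2 of 18 other pairs), and 7 of 9 libraries correlated best with their own number. With the replicate number as a block, 6, 2 and 2 members were under 0.05, against 9.34%, 4.43% and 7.12% of all genes. The medians of the members were -0.068, -0.057 and 0.029. Ezh2 was lost in Dot1l(fl/+), Kmt2d joined in the last comparison, and no other call of a member changed. The 3 pools a genotype limit what could be detected in the whole tissue, as the 95% intervals given in the report show.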

Other observations

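Of 24 other lysine methyltransferase and demethylase relatives tested, none was under an unadjusted p of 0.05 against the controls in either floxed genotype, with medians of 0.011 and 0.033 and 15 and 16 of the 24 above 0. Over all genes 8.39% and 3.93% were under it, and 6.48% between the floxed genotypes, so lists this short show little by their counts. In Dot1l(fl/fl) against Dot1l(fl/+), Mecom, a PR-domain transcription factor, was higher (0.29 ± 0.13, unadjusted p = 0.0488, adjusted p = 0.768, edgeR). It was at 4.94, 4.73 and 4.54 CPM in Dot1l(fl/+), below the controls (5.39, 5.67 and 5.79 CPM), and at 5.32, 5.26 and 6.91 CPM in Dot1l(fl/fl). Of 9 arginine methyltransferases, none was under 0.05 against the controls, and Prmt2 was lower in Dot1l(fl/fl) against Dot1l(fl/+) (-0.155 ± 0.056, unadjusted p = 0.016, adjusted p = 0.726, edgeR), with 79.3, 73.3 and 78.8 CPM against 84.9, 83.3 and 89.2 CPM.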
